A study of Mus musculus with 2 samples.

Results

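Cathepsins are the proteases and peptidases of lysosomes, and 10 of their genes were followed here in mouse liver during acute endotoxin injury, namely Ctsa, Ctsb, Ctsc, Ctsd, Ctsh, Ctsk, Ctsl, Ctso, Ctss and Ctsz. They were taken by symbol through the GENCODE M21 annotation of GRCm38, and all 10 were found among the 52489 annotated genes of the count tables. The livers came from Gbp5 knockout mice (KO, genotype GBP5-/-) and wild-type mice (WT), all C57BL/6 and 9 weeks old. Both genotypes had received D-galactosamine (GalN, 800 μg per g body weight) and lipopolysaccharide (LPS, 100 ng per g) 6 h before. LPS is a bacterial endotoxin and GalN sensitises hepatocytes to it. RNA of 4 livers was pooled per genotype and sequenced as 1 library, so there is no replicate check and no p-value, no untreated library was analysed here, and the individual livers cannot be told apart.

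Cathepsins are made as inactive proenzymes, carried to the lysosome by mannose 6-phosphate receptors and activated there by acid and by cleavage. Most are cysteine proteases of the papain family, while Ctsd encodes an aspartic protease and Ctsa a serine carboxypeptidase. Cystatins and stefins hold the cysteine members in check outside lysosomes. In liver, Ctsb, Ctsd and Ctsl are active in hepatocytes as well as in other cells, whereas Ctss and Ctsc are best known from macrophages, other antigen-presenting cells and, for Ctsc, granulocytes and cytotoxic lymphocytes.

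Reads on genes numbered 15750875 in the KO library and 19864848 in the WT library, so the WT library gives the more precise counts. Gbp5 itself had 873 reads in KO and 3211 in WT, a KO level 2.92-fold lower in CPM, reads scaled to library size, with reads remaining in the library labelled KO. Liver identity was plain in both, with 10 hepatocyte markers such as Alb summing to 108951 CPM in KO and 72219 CPM in WT. Over 12781 genes with at least 50 reads in both libraries together, 11.8% were 2-fold or more lower in KO and 2.68% were 2-fold or more higher. The median log2 ratio of CPM, KO over WT, was -0.07 over those genes. Ratios below carry exact 95% intervals for counting error only, and they compare these libraries, not the genotypes.

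The 10 cathepsins together differed little between the libraries, with Ctss lowest in KO relative to WT and Ctsl higher. In sum they held 2864 CPM in KO and 3091 CPM in WT, 1.08-fold lower in KO (interval 1.07 to 1.09). A 2-fold difference was reached by 0 of the 10 in either direction, against the 11.8% lower and 2.68% higher among all tested genes. Below a ratio of 1 stood 7 members and above it 3, where 54.9% of all tested genes were below 1 and 45.1% above. Their median log2 ratio of CPM was -0.18. Counting intervals lay below 1 for 6 members, above 1 for 2, and spanned 1 for Ctsh and Ctso.

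Ordered by level per length (FPKM, reads scaled to exon length and library size), Ctsz ranked 1 in both libraries and Ctsb ranked 2. Ctsz, a carboxypeptidase also called cathepsin X, stood at 254 FPKM in KO and 311 FPKM in WT. Ctsb, an endo- and dipeptidyl-peptidase abundant in liver, stood at 185 FPKM in KO and 198 FPKM in WT. Next in KO came Ctsl at rank 3 and Ctss at rank 4, an order that was turned round in WT. Ctsd followed at rank 5 in both, and Ctsh and Ctsa at ranks 6 and 7 had overlapping counting intervals in KO, at 45.8 and 43.9 FPKM. In WT the order of that pair was the other way, with Ctsa at 52.8 FPKM and Ctsh at 47.9 FPKM, and no neighbours overlapped. Ctsc, Ctso and Ctsk ended the order at ranks 8, 9 and 10 in both libraries.

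**Figure D1:**
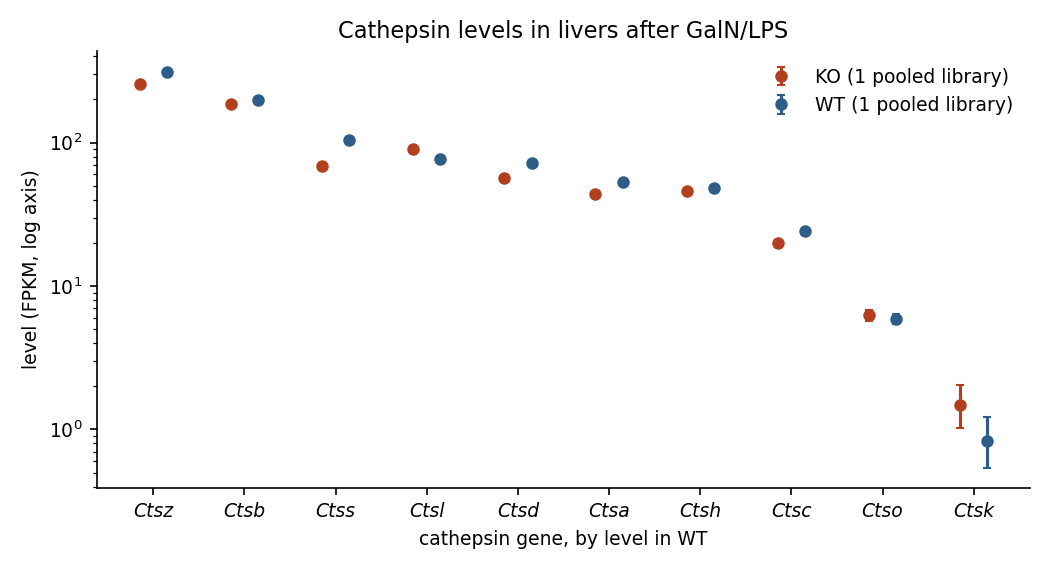
Level of each cathepsin gene in FPKM (log axis) in the KO library (left point of each pair) and the WT library (right point), 1 pooled library each, with exact Poisson 95% counting intervals, often smaller than the points. Ctsz is highest at 254 FPKM in KO and 311 FPKM in WT, Ctsk is lowest, and Ctss is the gene whose KO point lies farthest below its WT point.

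Ctss encodes cathepsin S, which trims the invariant chain from class II molecules in antigen-presenting cells and stays active at neutral pH. It had 1458 reads in KO and 2827 in WT, or 92.6 CPM in KO and 142 CPM in WT. This was 1.54-fold lower in KO (1.44 to 1.64), the lowest ratio of the 10, and 23.0% of all tested genes had a lower one. Its share of all cathepsin reads was 3.23% in KO (3.07% to 3.40%) and 4.60% in WT (4.44% to 4.77%), and these intervals do not overlap. The gene (ENSMUSG00000038642) lies on chromosome 3 of GRCm38 (95526786 to 95556403, plus strand), 17424 bases beyond the end of Ctsk.

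Ctsc encodes cathepsin C, or dipeptidyl peptidase I, which activates granule serine proteases by removing an N-terminal dipeptide. It had 1825 reads in KO and 2796 in WT, or 116 CPM in KO and 141 CPM in WT. Ctsc (ENSMUSG00000030560) lies on chromosome 7 (88278085 to 88310888, plus strand). Its level was 1.21-fold lower in KO (1.14 to 1.29), less far from 1 than Ctss. Set against Ctsc within each library, Ctss gave 0.799 reads per Ctsc read in KO and 1.01 in WT, so the 2 myeloid genes did not move by one factor (KO over WT 0.790, interval 0.724 to 0.862).

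Among the broadly expressed members, Ctsb (ENSMUSG00000021939, chromosome 14, 63122462 to 63145923, plus strand) and Ctsl (ENSMUSG00000021477, chromosome 13, 64359337 to 64370890, minus strand) differed in direction. Ctsb had 17614 reads in KO and 23791 in WT, or 1118 CPM in KO and 1198 CPM in WT, 1.07-fold lower in KO (1.05 to 1.09), or level with WT when the 50 most abundant genes are left out of the totals (log2 ratio 0.004). Ctsl encodes cathepsin L, a lysosomal endopeptidase of many cell types, and had 9297 reads in KO and 9891 in WT. Scaled to library size that was 590 CPM in KO and 498 CPM in WT, 1.19-fold higher in KO (1.15 to 1.22). Ctsl took 20.6% of the cathepsin reads in KO and 16.1% in WT, the widest difference in share of any member, while Ctsb took 39.0% in KO and 38.7% in WT, with overlapping intervals. Ctsd (ENSMUSG00000007891, chromosome 7, 142375911 to 142388038, minus strand) encodes cathepsin D, the main aspartic protease of lysosomes. It had 2102 reads in KO and 3343 in WT, or 133 CPM in KO and 168 CPM in WT, 1.26-fold lower in KO (1.19 to 1.33).

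The exopeptidase genes Ctsz, Ctsa and Ctsh lay between these values. Ctsz had 5774 reads in KO and 8908 in WT and was 1.22-fold lower in KO (1.18 to 1.26) as a ratio of CPM. Ctsa encodes protective protein, which holds β-galactosidase and neuraminidase 1 in a lysosomal complex besides its carboxypeptidase activity. Its reads numbered 3262 in KO and 4946 in WT, 1.20-fold lower in KO (1.15 to 1.26) as a ratio of CPM, a direction that turns with the GC and length correction described below. The partners in that complex differed from each other: the neuraminidase gene Neu1 had 544 reads in KO and 1172 in WT, 1.71-fold lower in KO (1.54 to 1.89), and the galactosidase gene Glb1 had 213 reads in KO and 204 in WT, 1.32-fold higher in KO (1.08 to 1.60). Ctsh, an aminopeptidase, had 3244 reads in KO and 4283 in WT, a ratio of CPM of 0.955 (0.912 to 1.00006, so the interval just takes in 1).

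Ctso and Ctsk were the scarcest members. Ctso, a little-studied papain-family member, had 506 reads in KO and 597 in WT, a ratio of CPM of 1.07 (0.948 to 1.21). Ctsk, the collagen-degrading cathepsin of osteoclasts, had 35 reads in KO and 25 in WT, a ratio of 1.77 (1.03 to 3.08). That interval is wide enough to take in both a near-equal level and a 3-fold one, so the highest ratio of the 10 is also the least precise.

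**Figure D2:**
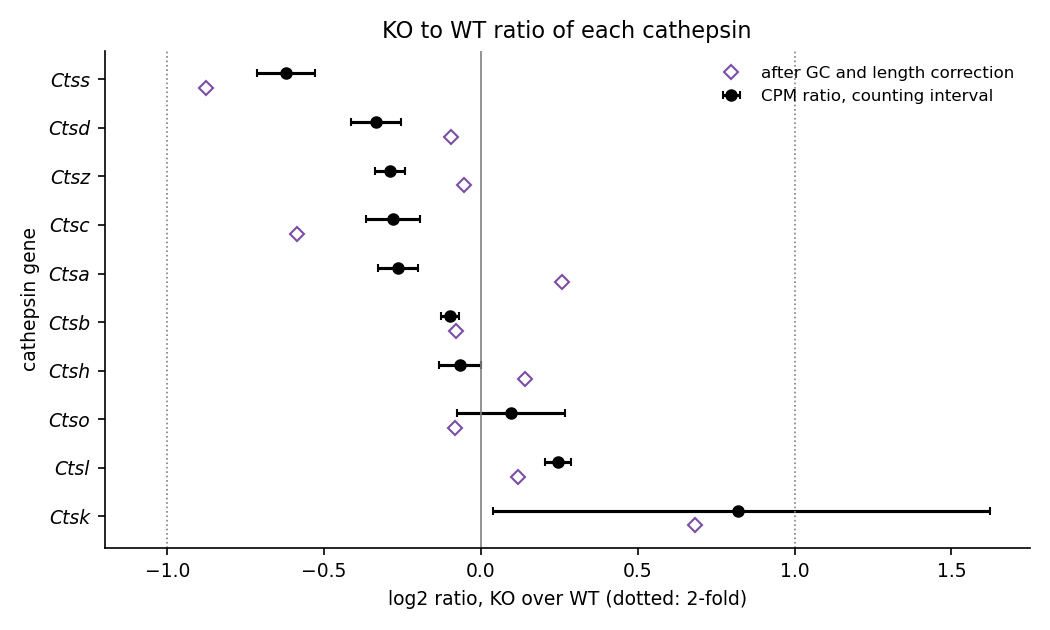
Log2 ratio of KO over WT for each cathepsin, from lowest at the top to highest. Black points are ratios of CPM with exact 95% counting intervals, open diamonds the same ratios less the median of genes of like GC content and length, and dotted lines mark 2-fold. No point passes a dotted line, Ctss lies farthest below 0 on both scales, and Ctsc joins it after the correction.

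The myeloid and the broad cathepsins were set against each other by their reads within a library, which does not depend on how the libraries are scaled. Ctss and Ctsc together had 3283 reads in KO and 5623 in WT, 1.36-fold lower in KO as CPM (1.30 to 1.42). Ctsb, Ctsd and Ctsl together had 29013 reads in KO and 37025 in WT, 1.01-fold lower in KO (0.996 to 1.03). There were thus 0.113 myeloid cathepsin reads per broad cathepsin read in KO and 0.152 in WT, a ratio of 0.745 (0.712 to 0.780). Gene by gene, Ctss was lower in KO against each of the 3, by 1.82-fold against Ctsl (1.70 to 1.95), 1.44-fold against Ctsb (1.34 to 1.53) and 1.22-fold against Ctsd (1.12 to 1.33). Ctsc was lower against Ctsl by 1.44-fold (1.35 to 1.54) and against Ctsb by 1.13-fold (1.07 to 1.21), while its ratio against Ctsd was 1.04 (0.957 to 1.13). Within the broad set, Ctsl was 1.49-fold higher in KO against Ctsd (1.41 to 1.59), wider than the difference between the sets on these uncorrected reads.

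Transcripts rich in GC tended to have lower ratios in this pair of libraries, and the cathepsins range from 41.1% GC in Ctsc to 57.3% in Ctsz. Over all tested genes the median log2 ratio of CPM was 0.27 in the 10% lowest in GC and -0.87 in the 10% highest. Ctsd, Ctsz and Ctsa, at 54.5% to 57.3% GC, sit in bins of GC and length whose median log2 ratio was -0.24 for the first 2 and -0.52 for Ctsa. Ctsc and Ctss, at 41.1% and 46.0% GC, sit in bins with medians of 0.30 and 0.25. With the bin median subtracted, Ctss was at -0.88 and Ctsc at -0.59, whereas Ctsd was at -0.10, Ctsz at -0.05, Ctsb at -0.08, Ctsl at 0.12 and Ctsa at 0.26. Ctsc thus lay well below Ctsd on this scale, unlike in the uncorrected reads. Ctsl and Ctsd came closer to each other, whereas the ratio of myeloid to broad cathepsins moved to 0.617, now the wider of these differences. On this scale 0 of 10 members passed 2-fold, against 5.68% of all genes lower and 3.26% higher, and the members' median was -0.07. Subtraction of a bin median takes away true differences too where they follow GC content or length.

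**Figure D3:**
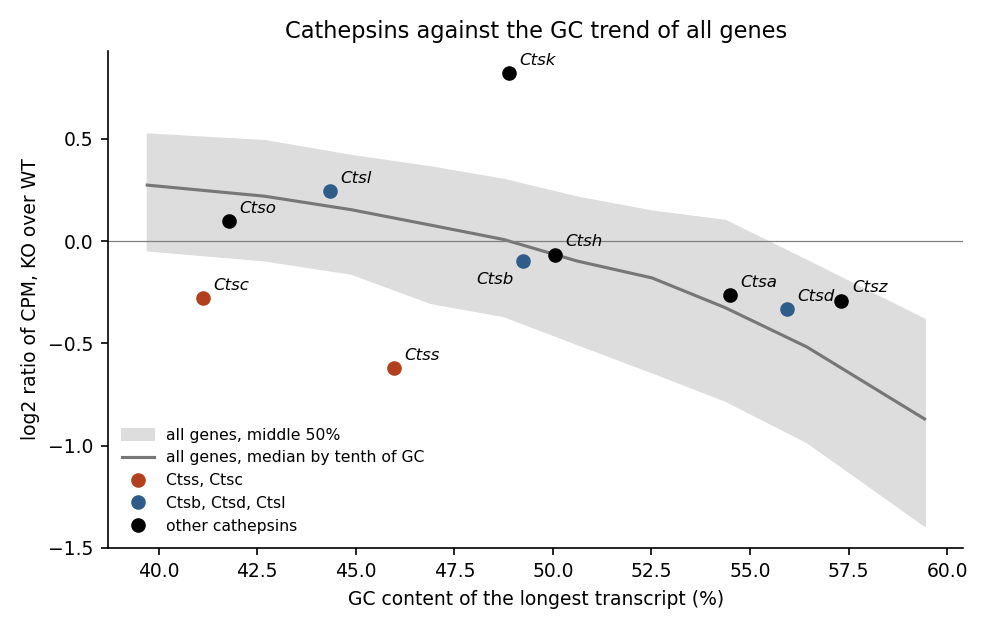
Log2 ratio of CPM, KO over WT, against GC content of the longest transcript for the 10 cathepsins (points), with the median (line) and the middle 50% (band) of all tested genes in 10 classes of GC content. Ctss and Ctsc lie below the band, Ctsk lies above it, and the other 7 lie inside it.

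Promoter stretches are shown for the members that hold CACGTG, the core of the element through which the transcription factor TFEB acts on lysosomal genes. The letters CACGTG read the same on both strands. RefSeq windows (GRCm38.p6, 250 bases before to 50 after a start) matched 8 of the 10 members, all but Ctsb and Ctsh. The motif was found for 3 of the 8 matched members, Ctsa, Ctsd and Ctsl, and for 8.09% of all 27025 genes. By window, 3 of 9 member windows and 7.15% of all 32851 windows held it. Ctsa has 2 windows, and the one at the annotated gene start did not hold the motif, so both Ctsa stretches come from a second start farther into the gene. The RefSeq starts used for Ctsd and Ctsl also lie inside the annotated genes, and distances below count from those starts. The Ctsl stretch and the Ctsd stretch nearer its start thus fall within the annotated genes, not upstream of them. In the windows of Ctsc, Ctsk, Ctso, Ctss and Ctsz these letters were not found. Stretches of 30 bases follow, 5′ to 3′ on the strand of the gene, with the motif in capitals.
Ctsd, chr7:142388048-142388077, minus strand, motif ending 239 bases before the start: tccccCACGTGacctgtatccagtcattct
Ctsd, chr7:142387908-142387937, minus strand, motif ending 92 bases before the start: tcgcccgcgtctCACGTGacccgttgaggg
Ctsl, chr13:64370739-64370768, minus strand, motif ending 230 bases before the start: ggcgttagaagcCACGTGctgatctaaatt
Ctsa, chr2:164833749-164833778, plus strand, motif ending 6 bases before the second start: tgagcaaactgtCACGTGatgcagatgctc
Ctsa, chr2:164833766-164833795, plus strand, motif after the second start: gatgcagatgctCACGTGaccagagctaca
A match describes the letters only, and the members that hold them had log2 ratios of CPM on both sides of 0, from -0.33 for Ctsd to 0.25 for Ctsl.

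Genes that surround the cathepsins in the lysosome differed by small amounts as well, in lists chosen with earlier results of these data known. Of 30 glycosidases, lipases and cofactors, 19 (63.3%) were below 0, against 54.9% of all tested genes. None passed 2-fold, against 11.8% of all tested genes lower and 2.68% higher, and the median log2 ratio of CPM was -0.18. After the GC and length correction 13 of the 30 were below 0 and the median was 0.06, against -0.07 for the cathepsins. Naglu was lowest there, 1.76-fold lower in KO (1.55 to 2.01), but at a log2 ratio of 0.11 with the bin median subtracted. Gm2a, the activator of ganglioside breakdown, was 1.46-fold higher in KO (1.37 to 1.55), and the sphingomyelinase gene Smpd1 1.34-fold higher (1.18 to 1.51). Among 22 genes of the lysosomal membrane and proton pump the median was 0.09, with 10 (45.5%) below 0, and 0.13 after the correction. Lamp1, which encodes a main protein of the lysosomal membrane, was 1.11-fold higher in KO (1.07 to 1.14), and the cystine exporter gene Ctns, on 225 reads in KO and 144 in WT, 1.97-fold higher (1.59 to 2.45). The macrophage sialomucin gene Cd68 was lowest of that list, 1.65-fold lower (1.50 to 1.82), followed by the proton pump gene Atp6v0c at 1.35-fold lower, while Atp6v1h was 1.41-fold higher.

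Genes that tag and sort lysosomal enzymes had a median log2 ratio of -0.38, and of -0.25 after the correction. Of the 10, 9 were below 0 (54.9% of all tested genes) and 1 was 2-fold or more lower (11.8% of all). That gene, the adaptor Gga1, was 2.23-fold lower in KO (2.01 to 2.48), and its log2 ratio of -1.16 became -0.23 after the correction. Nagpa, which uncovers the mannose 6-phosphate tag, was 1.70-fold lower (1.46 to 1.99), or -0.27 as corrected log2 ratio, and Scarb2 had a ratio of 0.969 (0.919 to 1.02). The sorting receptor gene Sort1 was 1.71-fold higher (1.31 to 2.24). All 6 genes around the lysosomal transcription factors were below 0, with a median of -0.43, but 4 of the 6 were below 0 after the correction and the median was -0.21. Tfeb had 112 reads in KO and 411 in WT, 2.91-fold lower in KO (2.36 to 3.62), but its log2 ratio of -1.54 became -0.39 after the correction, at a GC content of 63.2%. Tfec was 1.39-fold lower, or -0.78 as corrected log2 ratio. Tfe3 was 1.27-fold lower, but its corrected log2 ratio was 0.11, above 0 like that of Mtor at 0.16, and Mitf had a ratio of 0.895 (0.643 to 1.24).

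The other lysosomal peptidases ranged from wide differences to near-equal levels. Lgmn encodes legumain, which cleaves cathepsin proenzymes, and had 1947 reads in KO and 3897 in WT, 1.59-fold lower in KO (1.50 to 1.68), close to Ctss. Ctsw, the cathepsin of cytotoxic lymphocytes, had 23 reads in KO and 81 in WT, 2.79-fold lower (1.74 to 4.65). Ctse, an aspartic protease of gastric and other epithelia, had 108 reads in KO and 10 in WT, 13.6-fold higher in KO (7.13 to 29.2). Tpp1, a tripeptidyl peptidase, had a ratio of 1.06 (0.989 to 1.14). Of the 4 cystatins and stefins tested, which inhibit the cysteine members, 2 were below 0, against 54.9% of all tested genes. Cst3, which encodes cystatin C, had 3504 reads in KO and 5145 in WT, 1.16-fold lower (1.12 to 1.22) but level after the correction (log2 ratio 0.02), and Cstb, stefin B, had a ratio of 1.04 (0.951 to 1.14). Cst7, an inhibitor made by activated leukocytes that targets cathepsin C, had 14 reads in KO and 44 in WT, 2.49-fold lower (1.34 to 4.92), and Stfa2l1 had 25 and 27 reads in KO and WT.

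The 6 measured genes of class II loading, among them Cd74, were lower in KO by more than the myeloid pair as ratios of CPM. So were 2 of 3 measured granule proteases activated by cathepsin C. Cd74 encodes the invariant chain cut by cathepsin S. It had 2398 reads in KO and 8000 in WT, 2.65-fold lower in KO (2.53 to 2.77). Reads of Ctss per read of Cd74 were 0.608 in KO and 0.353 in WT. Of 6 measured genes of class II loading all were below 0, against 54.9% of all tested genes. Among them 5 were 2-fold or more lower, against 11.8% of all tested genes. H2-Ab1 was 3.70-fold and H2-Eb1 2.72-fold lower at one end, and H2-DMa 2.16-fold and H2-DMb1 1.79-fold lower at the other. After the GC and length correction the list median was -1.26, and 4 of the 6 were 2-fold or more lower, against 5.68% of all genes. H2-DMb1 at -0.87 and H2-DMa at -0.80 were then no lower than Ctss at -0.88. Of the granule proteases activated by cathepsin C, 2 were lower, Gzmb by 2.45-fold (2.15 to 2.79) and Gzma by 2.30-fold (1.74 to 3.07), while Prtn3 had 25 reads in each library. Ctsg had no read in either library, which allows up to 0.190 CPM in KO and 0.151 CPM in WT.

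Among markers of cells known to carry the myeloid cathepsins, those of Kupffer cells and macrophages were lower in KO, while those of monocytes and dendritic cells had a median near 0. All 11 Kupffer cell and macrophage markers were detected and below 0, and 7 were 2-fold or more lower. Among all tested genes 54.9% were below 0 and 11.8% were 2-fold or more lower. The markers' median log2 ratio of CPM was -1.17, or -1.16 after the correction. Their summed level was 611 CPM in KO and 1501 CPM in WT. Clec4f, a lectin of Kupffer cells, was 2.26-fold lower in KO (2.12 to 2.40), C1qa 3.15-fold (2.92 to 3.40), and Adgre1, which encodes F4/80, 1.58-fold (1.45 to 1.73). The list ran from Marco, 3.41-fold lower (3.22 to 3.62), to Timd4 and Vsig4, each 1.26-fold lower (1.10 to 1.45 and 1.07 to 1.48). The last pair was thus nearer to Ctsc than Clec4f was, and after the correction stood at -0.59, as did Ctsc. Reads of Ctss per read of Clec4f were 1.04 in KO and 0.707 in WT, whereas reads of Ctss per read of Adgre1 were 1.87 in KO and 1.81 in WT, a ratio of 1.03 (0.925 to 1.15). Reads of Ctsc per read of Clec4f were 1.30 in KO and 0.699 in WT, a ratio of 1.86 (1.71 to 2.02). In bulk tissue, fewer cells of a type and less RNA per cell cannot be told apart, and the part of these markers in the Ctss and Ctsc values was not tested.

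Other cell classes lay elsewhere. For comparison, 54.9% of all tested genes were below 0 and 45.1% above. Summed neutrophil markers stood at 320 CPM in KO and 402 CPM in WT with a median log2 ratio of -0.08 and 3 of 6 below 0. The receptor genes Csf3r and Cxcr2 were 2.19-fold (2.02 to 2.38) and 1.83-fold lower in KO (1.52 to 2.20), whereas S100a8 had a ratio of 1.04 (0.977 to 1.12). After the correction all 6 were below 0, with a median of -0.33. The 7 measured monocyte and dendritic cell markers had a median of 0.04, with 2 of 7 below 0, and a sum of 178 CPM in KO and 165 CPM in WT. After the correction the median was -0.23 with 4 of 7 below 0. Itgax was lowest, 1.65-fold lower in KO (1.29 to 2.13), and Siglech highest on 27 reads in KO and 25 in WT. Plac8 alone gave 103 CPM in KO and 87.9 CPM in WT. Flt3 and Xcr1 had too few reads to be tested, and the list does not separate monocytes from dendritic cells. T and NK cell markers had a median of -0.70 and B cell markers one of -0.65, each with all measured members below 0 but on sums of 12.8 and 17.2 CPM in KO against 22.2 and 27.5 CPM in WT. Hepatocyte markers had a median of 0.30, with 9 of 10 above 0 and Alb 1.80-fold higher in KO (1.80 to 1.81). Cholangiocyte and epithelial markers had a median of 0.97, with 5 of 6 above 0. Krt19 was 4.24-fold higher in KO (3.65 to 4.94), whereas Sox9 was 1.41-fold lower (1.27 to 1.56). The part of these markers in the Ctse value was not tested. Endothelial and stellate cell lists had medians of -0.15 and -0.37, which became 0.04 and -0.004 after the correction.

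**Figure D4:**
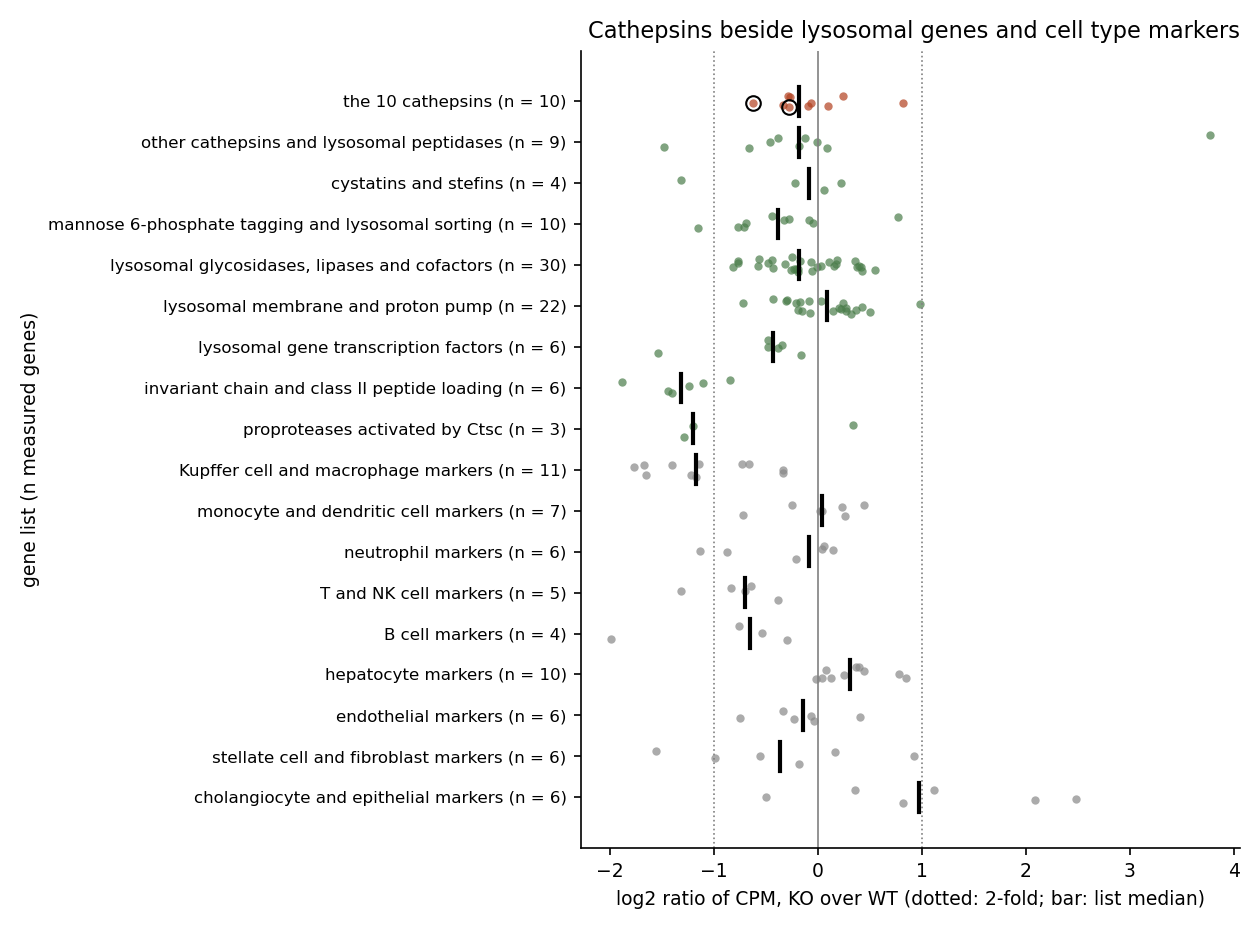
Log2 ratio of CPM, KO over WT, for each measured gene of the 10 cathepsins (top), of pathway lists (green) and of cell type markers (grey). Black bars are list medians, dotted lines mark 2-fold, and rings mark Ctss and Ctsc. The cathepsin median of -0.18 lies near 0, while the class II list at -1.32 and the Kupffer cell and macrophage list at -1.17 lie beyond the 2-fold line.

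Several members share exons with other genes in the annotation, which limits their levels. Ctsd shares 808 of its 2351 exon bases with a same-strand gene, Gm49369, that had no read in either library. Ctsb shares 774 of 6051 bases with Fdft1 and Ctsa 495 and 324 of 4715 bases with Pltp and Neurl2, all on the opposite strand. Ctsl shares 1742 bases with an antisense gene and 395 with a processed pseudogene, both without a read. Whether counting used strand, and how shared reads were treated, is not given in the sources used here. FPKM levels of these 4 genes are thus less certain than those of Ctss and Ctsc, which share no exon base with another gene. The longest Ctsl transcript also shares similar stretches of sequence with transcripts of 306 other genes, against 0 for Ctss and Ctsc. That of Ctsa does so with 7, among them the overlapping genes Pltp and Neurl2 already named. How reads from those stretches were placed was not tested.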

How the data were processed

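Liver mRNA was profiled in 2 libraries, 1 KO and 1 WT, grouped by the genotype labels. TopHat2, HTSeq 0.6.1 and GRCm38 were used, per the submitters' processing notes, whose annotation release and strand setting the labels do not state. The files are named for FPKM, but the deposited values are whole-number counts (2982 genes at exactly 1 read in KO and 2707 in WT) and were read as such. Entries without an annotated gene (209, with 0.496% of reads in KO and 0.652% in WT) were left out. Of 52636 Ensembl genes, 52489 were in GENCODE M21, and the other 147 stayed in the totals.

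CPM used all Ensembl rows. FPKM used the union of exons and serves for levels only. Ratios are KO over WT of CPM with no pseudocount, and intervals are exact 95% Clopper-Pearson intervals conditional on the summed reads, or exact conditional intervals of odds ratios for reads of 2 gene sets. They cover counting error, and reads are not independent molecules. A count of 0 was set to 3 reads in ratios. Genes were tested by size alone at 50 reads or more over both libraries. The GC and length correction subtracted the median log2 ratio in 10 GC by 4 length bins, from genes with 100 reads or more. Only the ratio step and its counting intervals were tested on simulated counts. The GC and length correction was not.

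Members and lists were chosen with earlier results of these data known. Named genes were all members, the 2 highest and 2 lowest of each pathway list, and partners and markers written down with them. Other genes, among them Csf3r, Cxcr2, Sox9, Mtor, Marco, Timd4, Vsig4, Itgax, Siglech and Plac8, were named outside this rule. Alternatives covered scaling, GC content and length, a pseudocount, filters and gene type. Python 3.11.15, numpy 2.4.6, pandas 2.3.3, scipy 1.17.1 and edgeR 4.0.16 (for TMM factors alone) were used.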

Additional observations from a re-analysis of the deposited data

How the results depend on the processing

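With 1 library per genotype no replicate could be left out, and no test across replicates exists. No paired analysis was possible because each genotype has 1 library. The myeloid to broad ratio of 0.745 is a ratio of reads within a library, which scaling, filter and gene type cannot change, and was 0.713 on FPKM with 1 added and 0.617 with GC and length bins. The median log2 ratio of the cathepsins was -0.18 and stayed below 0 in all 11 alternatives. It was -0.079 with totals without the 50 most abundant genes, -0.067 with GC and length bins and -0.27 at 200 reads, where Ctsk drops out. At 1 FPKM, with no filter or with protein-coding genes only, all 10 members stay in, so the median cannot change. A filter or gene type cannot change a member's own ratio either. No member reached 2-fold in any alternative. Ctss, Ctsc, Ctsd and Ctsz stayed below 0 and Ctsl and Ctsk above 0 throughout. Ctsa changed sign with the GC and length bins, to 0.26, as did Ctso, to -0.08, and Ctsh, to 0.14. Totals without the 50 most abundant genes moved every log2 ratio up by 0.10 and put Ctsb at 0.004 and Ctsh above 0. Genes 2-fold lower numbered 1506 and genes 2-fold higher 343, a lower share of 81.4% that became 63.5% with GC and length bins. The lower count was 725 with those bins, 689 on FPKM with 1 added and 4405 with no filter, and the higher count 95 on FPKM with 1 added, 109 at 200 reads and 3700 with no filter, where genes of few reads enter. Ctsk, on 35 reads in KO and 25 in WT, is limited by depth.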

Other observations

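Besides the 10 members, 16 further genes with a cathepsin symbol were in the count tables, most of them from the placental cluster on chromosome 13, and 12 had no read in either library. Ctsj of that cluster had 19 reads in KO and 23 in WT. Ctsf, a papain-family member, had 555 reads in KO and 761 in WT, a ratio of CPM of 0.920, and was chosen for mention after its values were seen.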
